A study of Mus musculus with 9 samples.

Results

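The comparison of cultures stimulated with TNF-α with untreated cultures (Con) was examined gene by gene and transcript by transcript. It rests on 6 of the 9 libraries of the series, 3 of Con and 3 of TNF-α, and its members were the 12701 of 56289 genes whose FPKM averaged 1 or more over these 6 libraries. FPKM, the count of fragments scaled to the length of the transcript and the size of the library, is a level relative to the rest of its library. The values were used without further scaling between libraries, except in the alternative settings. The labels name the cells as the murine macrophage-like line RAW264.7, from the BALB/c strain. The TNF-α cultures received the cytokine for 24 h, and the study's methods describe it as recombinant human protein. The remaining 3 libraries received TNF-α together with a preparation that the labels call WBP, taken here to be the WBT of the study, and they served only to estimate the spread between replicates. All groups came from 1 cell line, and the study describes the 3 libraries of a group as biological replicates, so the p-values measure the spread between cultures of that line.

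TNF-α is a cytokine that binds 2 receptors, of which TNFR1 is present on most cells. The engaged receptor gathers adaptor proteins and ubiquitin ligases that activate the IκB kinase complex and MAP kinases. IκB proteins, which hold NF-κB dimers in the cytoplasm, are then degraded, and the dimers enter the nucleus. Among the genes they induce are those for IκB proteins and for A20, which end the signal, and those for chemokines, adhesion molecules, complement and antigen presentation. In connective tissue and barrier cells the same cytokine makes the cell call in leukocytes and change the matrix around it.

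The depth was estimated at 20.3 to 26.3 M fragments for Con and 19 to 22.5 M fragments for TNF-α, from the step in FPKM that 1 fragment makes. The labelled cell type was compared with its markers. Of 18 macrophage markers, only Cd14, a receptor for bacterial products, lay above 1 FPKM in all 6 libraries, 8 were listed at 0 throughout, Ptprc, Spi1, Itgam and Adgre1 among them, and the summed level of the list was 6.3 to 7.54 FPKM in Con and 7.19 to 8.37 FPKM in TNF-α. By contrast, 14 of 18 fibroblast markers and 9 of 12 markers of Schwann cells or neural crest lay above 1 FPKM in all 6. The data thus went against the macrophage label, and the cells are called by their culture labels here. Tnf and Il1b themselves were listed at 0 in all 6 libraries, and Il6 did not exceed 0.0374 FPKM.

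At an adjusted p under 0.05 for TNF-α against Con, limma's moderated test called 1364 of the 12701 genes (10.7%), with Benjamini-Hochberg adjustment over all genes tested. Of these, 809 genes (6.37% of those tested) rose and 555 (4.37%) fell. Most changes were small. The median log2 fold change was 0.42 among the genes that rose and -0.38 among those that fell, against -0.001 over all genes tested, and 539 and 389 of them changed by less than 1.5-fold. More than 2-fold higher were 116 genes (0.913%), and more than 2-fold lower were 68 genes (0.535%). Of the 116 genes, 31 had a Con mean below 1 FPKM, and of the 68, 13 had a TNF-α mean below 1 FPKM, so that they passed the filter through 1 group alone. All 1364 genes had groups that did not overlap, as did 3822 (30.1%) of all genes tested. An exact permutation test of 3 libraries against 3 cannot give a two-sided p below 0.1. Fold changes were taken after adding 0.1 FPKM and on a log2 scale, which makes those of low genes too small, and in bulk RNA fewer cells of a kind and less RNA per cell cannot be told apart.

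**Figure D1:**
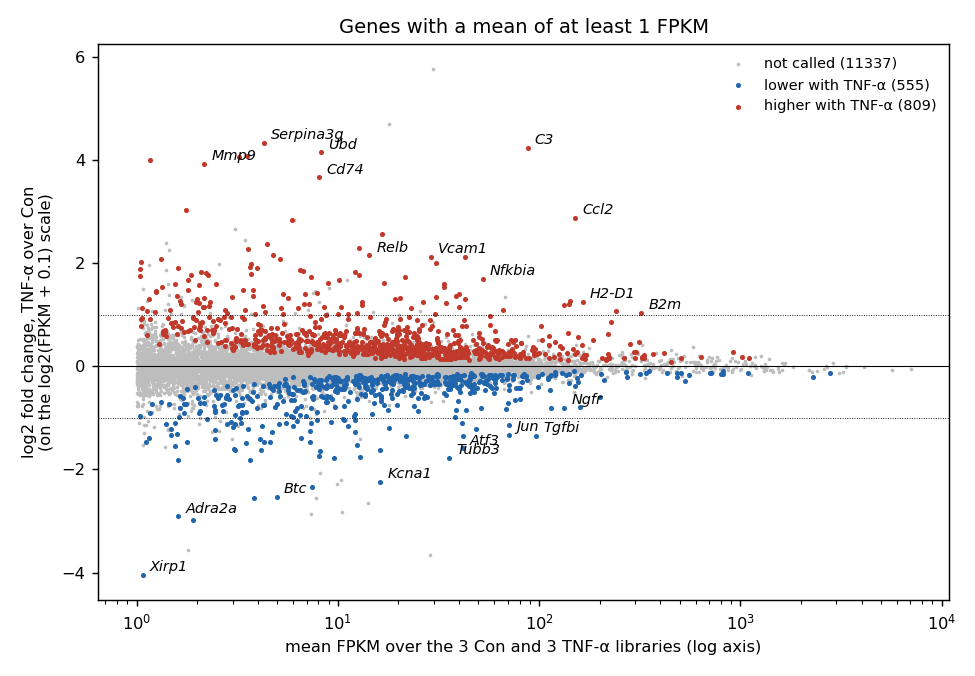
The log2 fold change of TNF-α over Con (vertical axis) is plotted against the mean FPKM over the 6 libraries (log axis) for the 12701 genes tested, with the 809 genes that rose in red, the 555 that fell in blue, the others in grey and dotted lines at a 2-fold change. The points far from 0 lie mostly at low FPKM, with C3, Ccl2, H2-D1 and B2m as red points at high levels and Tgfbi and Ngfr as blue ones.

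Of 15 tested genes for NF-κB subunits, IκB proteins and IκB kinases, 12 rose and none fell, with a median log2 fold change of 0.47. Nfkbie, which encodes IκBε, was at 6.19, 4.73 and 3.43 FPKM in Con and at 31.5, 21.7 and 31.5 FPKM with TNF-α. The groups were far apart, and the log2 fold change was 2.56 ± 0.25 (SE, adjusted p = 0.000257). Nfkbia, the gene of the classical inhibitor IκBα, was at 25.2, 26.0 and 22.8 FPKM in Con and at 78.7, 81.7 and 80.4 FPKM with TNF-α (log2 fold change 1.70 ± 0.05, adjusted p = 2.5e-07). Bcl3, a nuclear IκB relative, rose by 1.67 on the same scale.

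Relb, a subunit of the non-canonical branch, was at 5.51, 5.49 and 4.62 FPKM in Con and at 20, 23.8 and 26.7 FPKM with TNF-α (log2 fold change 2.15 ± 0.12, adjusted p = 6.65e-06). Its partner Nfkb2, the gene of p100 and p52, went from 20.7 ± 1.44 FPKM (SD, n = 3) in Con to 48.6 ± 1.94 FPKM (SD, n = 3), a log2 fold change of 1.23 ± 0.06. In both genes every TNF-α library lay above every Con library. Rel and Nfkb1, subunits of the canonical branch, rose by 0.50 ± 0.07 and 0.38 ± 0.05. Differences between these fold changes were not tested.

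Neither receptor gene of TNF-α was called in the fit reported. Tnfrsf1a, the gene of TNFR1, was at 36.0, 36.7 and 36.1 FPKM in Con and at 34.7, 56.1 and 56.8 FPKM with TNF-α, so that 1 TNF-α library lay below all Con libraries, and it was not called (log2 fold change 0.40, adjusted p = 0.193). Without TNF-α replicate 1, the low library, its adjusted p was 0.00246. Tnfrsf1b, the gene of TNFR2, differed by -0.05 (adjusted p = 0.616). Of 25 tested genes of the receptor complex and the A20 module, 8 rose and none fell. Tnfaip3, the gene of A20, was at 3.79, 4.92 and 4.24 FPKM in Con and at 17.1, 13.9 and 10.0 FPKM with TNF-α. Tnip1, which encodes an A20-binding protein, went from 17.3 ± 0.318 to 44.1 ± 1.76 FPKM (SD, n = 3 each) with a log2 fold change of 1.35 ± 0.06. The adaptor gene Traf2 and Spata2, which links the deubiquitinase CYLD to the receptor complex, rose by 0.61 and 0.77.

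Other receptors of the TNF family included 12 tested genes, of which 6 rose and 2 fell. Fas, the gene of the death receptor CD95, was at 1.25, 0.998 and 1.25 FPKM in Con and at 5.49, 5.96 and 6.62 FPKM with TNF-α (log2 fold change 2.28 ± 0.15, adjusted p = 2.61e-05). Tnfrsf9, which encodes the co-stimulatory receptor 4-1BB, rose by 2.30 ± 0.32, and its TNF-α libraries varied more than those of Fas, from 15.5 to 32.5 FPKM. Tnfrsf12a and Ltbr, the receptors of TWEAK and lymphotoxin and the most abundant of the list, were not called, with log2 fold changes of 0.08 and 0.09.

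Chemokine genes were few in number but held several of the largest changes. Of 6 tested genes for CC chemokines 4 rose, and of 4 tested genes for CXC and CX3C chemokines 3 rose, while none of either list fell. These are 66.7% and 75% called, against 10.7% of all genes tested. In each list 1 called gene had a mean below 1 FPKM in 1 group. Over the alternative settings 2 to 5 and 2 to 4 rose, and 4 and 3 without any single library. Another 13 and 11 listed genes lay below 1 FPKM on average. Ccl5, which encodes an attractant of T cells and monocytes, was at 0.503, 0.698 and 0 FPKM in Con and at 7.01, 6.19 and 4.92 FPKM with TNF-α. The same pattern of a Con level near the limit of detection held for Cxcl10, an attractant of activated T cells, at 0.506, 0.366 and 0.133 FPKM in Con and 6.60, 7.52 and 5.99 FPKM with TNF-α. Their log2 fold changes were 4.06 ± 0.66 (adjusted p = 0.00463) and 4.07 ± 0.30 (adjusted p = 4.71e-05), and they were 2.35 and 2.53 with a pseudocount of 1 FPKM.

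Cxcl1, an attractant of neutrophils, was at 1.37, 1.52 and 1.22 FPKM in Con and at 11.3, 10.5 and 9.37 FPKM with TNF-α (log2 fold change 2.84 ± 0.10, adjusted p = 5.35e-07). At higher levels, Ccl7 went from 16.9 ± 1.33 to 50.9 ± 2.12 FPKM and its neighbour on chromosome 11, Ccl2, from 36.0 ± 2.86 to 265 ± 3.51 FPKM (SD, n = 3 each). Cx3cl1, the membrane-bound fractalkine, rose by 0.42 ± 0.08, and Cxcl12, which is made constitutively by stromal cells, was not called (log2 fold change 0.26, adjusted p = 0.104). The list thus ran from genes near 0 in Con to genes that were already expressed there.

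Among 6 tested genes for interleukins and colony-stimulating factors, Csf1 and Il34 rose, and both encode ligands of the macrophage receptor CSF1R. Csf1 was at 20.2, 21.8 and 23.1 FPKM in Con and at 54.9, 60.3 and 52.5 FPKM with TNF-α (log2 fold change 1.36 ± 0.06, adjusted p = 3.29e-06), and Il34 rose by 0.50 ± 0.08. Of 21 tested cytokine receptor genes 10 rose and none fell, with a median of 0.25, and 6 rose without Con replicate 3 or TNF-α replicate 2. Ifngr2, a chain of the interferon-γ receptor, rose most, from 11.1 ± 0.990 to 27.4 ± 0.409 FPKM (SD, n = 3 each). Il1rap, Lifr and Il6st, signalling chains for interleukin-1 and the interleukin-6 family, rose by 0.66, 0.47 and 0.45. Of 15 tested genes of the Toll-like receptor pathway 1 was called (6.67%, against 10.7% of all genes tested). It was Tlr2, which rose from 3.35 ± 0.366 to 11.3 ± 0.456 FPKM (SD, n = 3 each, log2 fold change 1.73 ± 0.10).

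**Figure D2:**
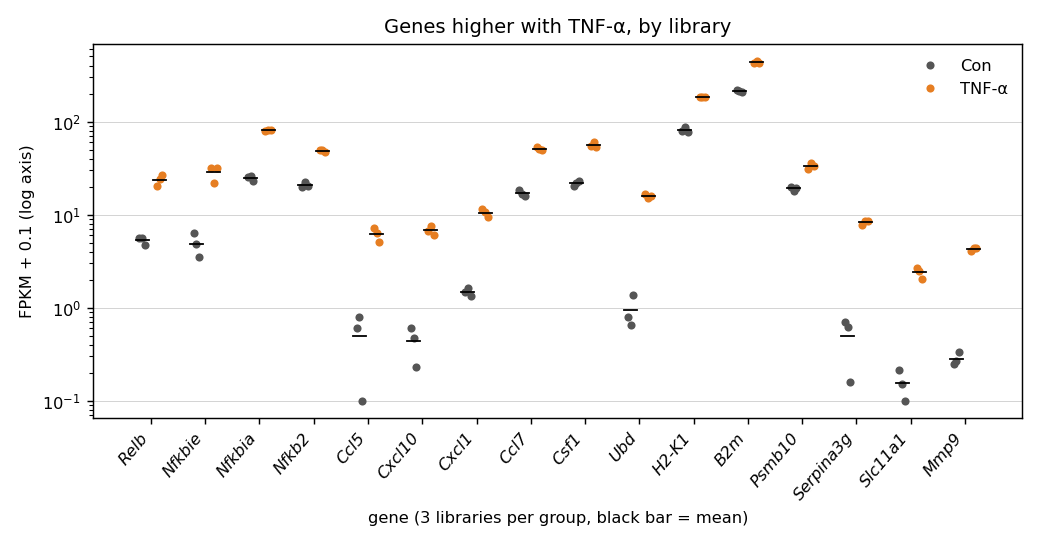
FPKM + 0.1 of 16 genes that rose is shown on a log axis for each of the 3 Con libraries (grey) and the 3 TNF-α libraries (orange), with a black bar at the group mean. Every orange point of a gene lies above its grey points, and for Ccl5 and Slc11a1 the lowest grey point sits at 0.1, a listed value of 0.

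The sequence before the starts of these genes was read, since NF-κB acts there on many of its targets. RefSeq windows of 300 bases on GRCm38.p6, 250 before to 50 after a start, were found for 9125 of the genes tested and for 78 of the 116 genes more than 2-fold higher. For each gene the window nearest to the start of its most abundant transcript was used. A match to the NF-κB consensus of 10 bases on either strand was present in 33 of these 78 windows (42.3%), in 18.1% of the windows of all genes that rose, in 6.25% of 48 windows of genes more than 2-fold lower and in 10.5% of all 9125 windows. An interferon-type pattern, GAAA and again GAAA with any 2 bases between them, was present in 12.8%, 6.7%, 6.25% and 3.04% of the same sets, and the AP-1 heptamer TGANTCA in 10.3%, 7.2%, 14.6% and 4.5%. These shares describe letters in a window and do not mark bound sites. With only the windows within 100 bases of the start in use, the NF-κB shares were 46% of 63 windows of genes more than 2-fold higher, 9.38% of 32 of genes more than 2-fold lower and 10.6% of all 7129.

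Of the 20 genes with the largest positive change, 14 had a window and 7 of these held an NF-κB match. Among the windows without a match, those of Slc11a1, Clip4 and Dock10 lay 6448, 49119 and 44144 bases from the start of the most abundant transcript. Those of C3, Fas, Rgs16 and Slc2a6 lay at most 7 bases from it. The stretch from 170 to 6 bases before the RefSeq start is printed for the 5 genes with a match in which it overlaps no annotated exon. The sequences run 5′ to 3′ on the strand of the gene, with the matches in capitals. They are shown for the place of the matches and for how their letters differ from gene to gene.
Serpina3g, chr12:104235977-104236141, plus strand: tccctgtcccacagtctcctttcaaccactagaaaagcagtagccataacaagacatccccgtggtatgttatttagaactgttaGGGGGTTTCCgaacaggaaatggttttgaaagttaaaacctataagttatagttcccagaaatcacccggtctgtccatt
Ubd, chr17:37193722-37193886, plus strand: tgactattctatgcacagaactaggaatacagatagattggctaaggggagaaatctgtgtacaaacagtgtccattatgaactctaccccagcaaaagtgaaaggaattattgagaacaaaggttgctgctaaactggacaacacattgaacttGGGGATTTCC
Cxcl10, chr5:92348895-92349059, minus strand: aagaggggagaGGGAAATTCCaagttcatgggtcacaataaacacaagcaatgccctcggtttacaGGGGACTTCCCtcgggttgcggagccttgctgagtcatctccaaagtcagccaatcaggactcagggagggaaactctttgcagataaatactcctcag
Cxcl1, chr5:90891075-90891239, plus strand: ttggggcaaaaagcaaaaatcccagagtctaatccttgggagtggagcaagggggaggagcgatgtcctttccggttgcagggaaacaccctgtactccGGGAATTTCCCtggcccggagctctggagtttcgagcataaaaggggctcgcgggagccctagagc
Nfkbie, chr17:45555530-45555694, plus strand: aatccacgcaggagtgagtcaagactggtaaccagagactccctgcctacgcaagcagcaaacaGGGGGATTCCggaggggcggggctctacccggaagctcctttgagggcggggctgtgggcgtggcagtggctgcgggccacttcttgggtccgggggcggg
The match began 15 bases before the start in Ubd, 71 in Cxcl1, 85 in Serpina3g and 106 in Nfkbie. Cxcl10 held one at 159 bases and another at 104 bases before its start. Where 11 capitals stand together, in Cxcl10 and Cxcl1, the pattern, read on either strand, matched again at a shift of 1 base. The remaining pair with a match, Tnfrsf9 and Cdhr4, had annotated exons in this stretch.

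Antigen presentation by MHC class I is the display of peptides made by the proteasome. Of 17 tested genes of this pathway 13 rose and none fell, with a median log2 fold change of 0.62, and all 17 had a positive sign. B2m, the light chain of every class I molecule, was at 217, 210.5 and 209 FPKM in Con and at 423, 447 and 430.1 FPKM with TNF-α (log2 fold change 1.03 ± 0.03, adjusted p = 2.5e-07). The heavy chain genes H2-D1 and H2-K1 went from 97.4 ± 4.94 to 232 ± 7.48 FPKM and from 81.3 ± 5.11 to 184 ± 1.28 FPKM (SD, n = 3 each). The heavy chain genes are near-identical copies, so fragments may have been divided between them and the value of a single one is uncertain. Tapbp, the gene of tapasin, which loads peptides onto class I, rose by 1.20 ± 0.05.

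The proteasome genes divided by list. Of 5 tested genes of the immunoproteasome and its PA28 activator 4 rose, whereas of 14 tested genes of the constitutive core none rose or fell at this threshold, with a median of -0.01. Psmb10 was at 19.8, 17.9 and 19.4 FPKM in Con and at 30.7, 35.5 and 33.3 FPKM with TNF-α (log2 fold change 0.80 ± 0.06), and Psmb8 rose by 0.91 ± 0.15 from a lower level. Psmb4 of the constitutive core was at 121 ± 6.08 FPKM in Con and 129.6 ± 4.23 FPKM with TNF-α (SD, n = 3 each, adjusted p = 0.208). Ubd, the gene of the ubiquitin-like protein FAT10, which marks proteins for the proteasome, had one of the largest changes of all. It lies within the MHC region (ENSMUSG00000035186, GRCm38 chr17:37193892-37196095) and was at 0.700, 0.547 and 1.27 FPKM in Con and at 16.6, 15.0 and 15.5 FPKM with TNF-α, a log2 fold change of 4.15 ± 0.23 (adjusted p = 9.74e-06).

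A class II partner changed as well. Cd74, the invariant chain of MHC class II, was at 0.982, 1.06 and 1.26 FPKM in Con and at 14.4, 15.7 and 15.0 FPKM with TNF-α (log2 fold change 3.66 ± 0.10, adjusted p = 2.23e-07). The groups did not overlap, and the spread within each was small.

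Of 36 tested genes that interferons induce 22 rose, 7 of them by more than 2-fold, and none fell, with a median log2 fold change of 0.50. Gbp7 and Gbp3, guanylate-binding proteins of cell-intrinsic defence, rose by 1.90 ± 0.25 and 1.47 ± 0.19, although reads may be shared among the copies of this family. Parp14, an ADP-ribosyltransferase, was at 7.97, 7.78 and 7.5 FPKM in Con and at 17.6, 19.1 and 18.9 FPKM with TNF-α (log2 fold change 1.24 ± 0.06). Zbp1, a sensor of Z-form nucleic acids, rose by 1.14 ± 0.21, and Ifitm3, which blocks viral entry, went from 126 ± 0.776 to 187 ± 5.41 FPKM (SD, n = 3 each). Among 18 tested regulators 4 rose and 1 fell, and 2 rose when any single Con library or TNF-α replicate 3 was left out. Irf1 went from 19.4 ± 0.222 to 31.4 ± 2.00 FPKM, and Irf5 rose by 1.21 ± 0.13 from a mean below 1 FPKM. The other 13 regulators were not called. Over the alternative settings, between 12 and 23 of the interferon-induced genes rose, and between 13 and 19 without single libraries, with 13 without TNF-α replicate 3.

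Complement genes were led by C3, which is the central component of the cascade. Of 13 tested members 6 rose and 1 fell, and none fell when any single library was left out. C1s1 and C1ra, which encode the proteases of the C1 complex, went from 17.3 ± 2.20 to 50 ± 3.31 FPKM and from 15.3 ± 1.08 to 24.9 ± 1.28 FPKM (SD, n = 3 each). Cfb, the factor B of the alternative pathway, was at 0.547, 0.491 and 0.838 FPKM in Con and at 1.57, 1.54 and 2.50 FPKM with TNF-α (log2 fold change 1.44 ± 0.28, adjusted p = 0.0122). C3 itself reached 167 ± 6.84 FPKM (SD, n = 3) with TNF-α, which is the highest TNF-α level among the 20 genes with the largest positive change apart from Ccl2.

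Serpina3g, a serine protease inhibitor of the mouse, had the largest log2 fold change among the genes called with the pseudocount of 0.1 FPKM (ENSMUSG00000041481, chr12:104236245-104241939). It was at 0.604, 0.518 and 0.0589 FPKM in Con and at 7.69, 8.36 and 8.5 FPKM with TNF-α, and the log2 fold change of 4.33 ± 0.50 became 2.74 with a pseudocount of 1 FPKM. The gene belongs to a family of close copies, so its level is uncertain. Slc11a1, a transporter of divalent metals in phagosomes, was at 0.114, 0.0510 and 0 FPKM in Con and at 2.54, 2.39 and 1.95 FPKM with TNF-α, and its log2 fold change went from 4.01 ± 0.30 to 1.64 with the larger pseudocount. Among 17 tested genes for iron handling 5 rose and none fell. Steap4, a metalloreductase, went from 8.27 ± 0.310 to 25.5 ± 0.458 FPKM, and Cp, the ferroxidase ceruloplasmin, from 74.4 ± 2.03 to 129 ± 13.2 FPKM (SD, n = 3 each). Trf, the gene of transferrin, rose by 1.47 ± 0.15, and Slc11a2, the importer DMT1, by 0.77 ± 0.05. The ferritin genes Fth1 and Ftl1, the most abundant of the list, were not called (adjusted p = 0.063 and 0.297), although Fth1 had an adjusted p of 0.0365 without Con replicate 1.

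Other genes among those with the largest increases do not share a list. Rgs16, a regulator of G protein signalling, went from 15.9 ± 1.71 to 69.7 ± 3.23 FPKM (SD, n = 3 each, log2 fold change 2.13 ± 0.08). Slc2a6, a sugar transporter of lysosomes, was at 1.92 ± 0.305 and 8.43 ± 0.802 FPKM. Dock10, an exchange factor for small GTPases, was at 1.35, 1.13 and 1.69 FPKM in Con and at 7.85, 7.93 and 6.71 FPKM with TNF-α. Clip4, a relative of microtubule-binding proteins, rose by 3.03 ± 0.29 from a Con mean of 0.319 FPKM.

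Of 16 tested genes for caspases and necroptosis 5 rose and 1 fell (37.5% called, against 10.7% of all genes tested), and the lower call was lost without single libraries, Con replicate 1 or 3 or TNF-α replicate 3. Casp4, an inflammatory caspase, was at 5.63, 5.16 and 6.30 FPKM in Con and at 21.4, 19.1 and 18.5 FPKM with TNF-α (log2 fold change 1.77 ± 0.08, adjusted p = 2.92e-06). Its substrate Gsdmd, the gene of gasdermin D, rose by 0.62 ± 0.07, and Casp8, an initiator caspase, rose by 0.41. Of 15 tested genes of the BCL-2 family 4 rose (26.7%), and these were the promoters of death Bax, Bid, Bbc3 and Bak1. Bid went from 33.4 ± 0.843 to 46.7 ± 0.857 FPKM (SD, n = 3 each). Bak1 lost its call in 5 of the 6 fits without 1 library, with adjusted p-values from 0.105 without TNF-α replicate 1 to 0.125 without Con replicate 2, and kept it without Con replicate 1 alone. Mcl1, which protects cells, was at 60.7 ± 0.459 FPKM in Con and 57.4 ± 0.455 FPKM with TNF-α (adjusted p = 0.195).

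The matrix and its enzymes changed in both directions. Mmp9, the gelatinase that cleaves collagen of basement membranes, was at 0.149, 0.167 and 0.231 FPKM in Con and at 3.95, 4.22 and 4.25 FPKM with TNF-α (log2 fold change 3.92 ± 0.14, adjusted p = 7.25e-07). Mmp2, the related gelatinase, was far more abundant and fell slightly, from 589.6, 587 and 591 FPKM to 525, 524 and 519.7 FPKM. The protease genes Adamts1 and Adamts7 rose by 1.30 ± 0.06 and 1.14 ± 0.07. Of 22 tested collagen chains 9 rose and 2 fell (1 without Con replicate 3 or TNF-α replicate 2 or 3), with Col5a3 at 1.40 ± 0.16 and the abundant Col6a1 at 0.63 ± 0.03, while of 30 tested glycoproteins and proteoglycans 5 rose and 9 fell. Tnc, the gene of tenascin-C, was at 68.3, 65.3 and 70.6 FPKM in Con and at 29.3, 29.0 and 29.1 FPKM with TNF-α, and Gpc1, the heparan sulphate proteoglycan glypican-1, went from 201 ± 4.31 to 117 ± 3.11 FPKM (SD, n = 3 each). Of 20 tested integrins and laminins 6 rose (30% called, against 10.7% of all genes tested), with Itga8 first at 1.99 ± 0.10. Over the alternative settings 2 to 6 of them rose, and 4 to 5 without single libraries. The fibroblast markers summed to 5625 to 6001 FPKM in Con and to 6001 to 6292 FPKM with TNF-α. Of these markers 3 were called higher and 3 lower, and their part in these results was not tested.

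Xirp1, which encodes an actin-binding protein of striated muscle, was at 2.03, 2.24 and 2.07 FPKM in Con and at 0.0174, 0.0410 and 0.0459 FPKM with TNF-α (ENSMUSG00000079243, chr9:120013755-120023598). The log2 fold change was -4.04 ± 0.32 (adjusted p = 7.12e-05) and became -1.59 with a pseudocount of 1 FPKM. Adra2a, an adrenergic receptor, was at 3.33, 3.08 and 2.34 FPKM in Con and at 0.216, 0.277 and 0.425 FPKM with TNF-α (log2 fold change -2.91 ± 0.25). Kcna1, a voltage-gated potassium channel of nerve, was at 26.4, 26.2 and 27.8 FPKM in Con and at 5.64, 5.19 and 6 FPKM with TNF-α (log2 fold change -2.24 ± 0.07, adjusted p = 3.38e-07). In all of them the groups lay several-fold apart. Spn-ps and Akp-ps1, annotated as pseudogenes, were also among the 20 genes with the largest decrease, and their fragments may belong to their parent genes.

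Tubb3, the neuronal β-tubulin, went from 55.3 ± 2.29 to 16.1 ± 0.563 FPKM (SD, n = 3 each, log2 fold change -1.77 ± 0.06). Uchl1, a ubiquitin hydrolase abundant in neurons, was at 11.7, 12.5 and 13.0 FPKM in Con and at 3.78, 3.85 and 4.09 FPKM with TNF-α. Plxnb3, a plexin receptor of semaphorins, went from 12.6 ± 0.313 to 3.67 ± 0.128 FPKM, a log2 fold change of -1.75 ± 0.06. Of all 24 tested semaphorins, plexins and neuropilins 4 rose and 4 fell, and 7 fell without Con replicate 1. Plxnd1, a plexin of vessels, rose from 15.3 ± 0.881 to 29.9 ± 0.568 FPKM.

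Of 15 tested genes for ErbB, neuregulin, GDNF and neurotrophin signalling 6 fell and 1 rose. Ngfr, the neurotrophin receptor p75, was at 169, 165 and 174 FPKM in Con and at 97.6, 96.7 and 96.7 FPKM with TNF-α (log2 fold change -0.80 ± 0.03, adjusted p = 8.76e-07). Its groups lay far apart, and Gdnf, a trophic factor of neurons, went from 20.2 ± 0.591 to 12.6 ± 0.758 FPKM (SD, n = 3 each). Nrg1, the neuregulin that acts on Schwann cells, was the member that rose, from 1.14 ± 0.139 to 2.83 ± 0.105 FPKM. Outside the list, Btc, the ErbB ligand betacellulin, had a log2 fold change of -2.53 ± 0.23, and Cntf, the ciliary neurotrophic factor, one of -1.61 ± 0.20.

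Of 20 tested myelin and Schwann cell genes 7 fell and none rose, with a median log2 fold change of -0.08. Cadm4, an adhesion molecule between Schwann cell and axon, was at 60.3, 60.2 and 59.7 FPKM in Con and at 22.3, 25.3 and 22.9 FPKM with TNF-α (log2 fold change -1.35 ± 0.08, adjusted p = 1.12e-05). S100b, a calcium-binding protein of glia, went from 6.70 ± 0.149 to 2.71 ± 0.193 FPKM and Cnp, a myelin enzyme, from 49.8 ± 0.571 to 27.6 ± 0.837 FPKM (SD, n = 3 each). Among 22 tested transcription factors of neural crest and Schwann cells 4 fell and 2 rose, and 1 rose when any single Con library or TNF-α replicate 3 was left out. Sox9 and Sox2 had log2 fold changes of -0.70 ± 0.07 and -0.57 ± 0.05, Pou3f1, a factor of promyelinating cells, rose by 0.98 ± 0.06, and Sox10 was not called (-0.17, adjusted p = 0.401). The 12 Schwann cell or neural crest markers summed to 953 to 1009 FPKM in Con and to 776 to 839 FPKM with TNF-α, with 5 of them lower, and their part in the result was not tested.

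**Figure D3:**
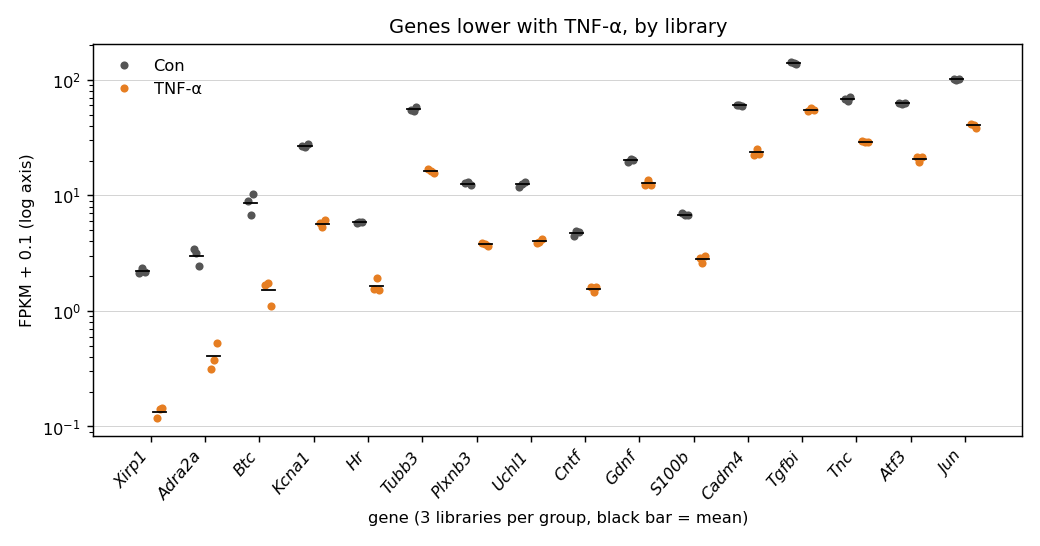
FPKM + 0.1 of 16 genes that fell is shown on a log axis for each of the 3 Con libraries (grey) and the 3 TNF-α libraries (orange), with a black bar at the group mean. The orange points of every gene lie below its grey points, from Xirp1 near 0 FPKM with TNF-α to Jun and Tgfbi, which remained between 38.5 and 57.0 FPKM.

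Transcription factors that answer growth signals were divided. Of 15 tested genes of the Jun, Fos and AP-1 group 5 fell and 4 rose. Only 3 fell without Con replicate 3 or TNF-α replicate 3, and 2 rose without Con replicate 3 or TNF-α replicate 2. Jun was at 102, 99.0 and 102 FPKM in Con and at 41.3, 40.9 and 38.5 FPKM with TNF-α (log2 fold change -1.33 ± 0.05, adjusted p = 5.35e-07). Atf3, a factor of the stress response, was at 63.1, 62.0 and 62.7 FPKM in Con and at 21.5, 19.5 and 21.2 FPKM with TNF-α (log2 fold change -1.59 ± 0.05). The libraries of a group lay within a few FPKM of each other in both genes. Fos had a log2 fold change of -0.96 ± 0.15, while Jdp2, a repressor of AP-1, rose by 0.57 ± 0.07. Of 28 tested KLF, EGR and other immediate early genes 5 fell and 3 rose (1 without TNF-α replicate 3), with Egr1 at -0.66 ± 0.06 and Ier3 at 0.73 ± 0.12. The phosphatase gene Dusp5, which acts on ERK, had a log2 fold change of -1.13 ± 0.17.

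Targets and regulators of TGF-β and BMP were divided as well, with 6 lower and 5 higher of 35 tested, and 3 higher without Con replicate 1 or 3 or TNF-α replicate 1 or 2. Tgfbi, a matrix protein induced by TGF-β, was at 143, 139 and 136 FPKM in Con and at 53.1, 57.0 and 54.3 FPKM with TNF-α (log2 fold change -1.35 ± 0.04, adjusted p = 2.5e-07). Id3, a target of BMP, had a log2 fold change of -0.58 ± 0.05. Nog, the BMP antagonist noggin, rose from 1.30 ± 0.0676 to 3.02 ± 0.161 FPKM (SD, n = 3 each). In the list of glycolysis 3 of 21 tested genes fell and 1 rose (0 when any single library other than Con replicate 2 was left out), with Aldoc at -1.07 ± 0.15 and Pfkfb4 at -0.88 ± 0.09. These calls are 19% of the list, against 10.7% of all genes tested. The list did not fall as a whole, since its median was 0.10 and 15 of the 21 genes had a positive sign.

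Of 42 tested genes of DNA replication 2 rose (0 without Con replicate 3) and 1 fell, and of 36 tested genes of mitosis 1 rose, which are 7.14% and 2.78% called against 10.7% of all genes tested. The medians of these lists were 0.15 and 0.20, against -0.001 over all genes tested. A positive sign was held by 38 of 42 and 32 of 36 members, which was not tested. Of 78 tested cytosolic ribosomal proteins 2 rose and 7 fell, and of 77 tested respiratory chain genes 6 rose and 5 fell, 11.5% and 14.3% called. These calls were unstable: leaving out any single library left 0 to 2 ribosomal genes lower, 1 respiratory gene rose without TNF-α replicate 3, and 2 fell without Con replicate 1 or TNF-α replicate 2. Of 23 tested genes of cholesterol synthesis and uptake 6 rose and none fell, with Fdps and Mvk, enzymes of the mevalonate pathway, at 0.42 ± 0.07 and 0.41 ± 0.07, and 22 of the 23 had a positive sign at a median of 0.16. Without Con replicate 2 or TNF-α replicate 3, 3 of the 23 rose. Of 12 genes used by every cell 1 was called, Actb, with a log2 fold change of 0.16.

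**Figure D4:**
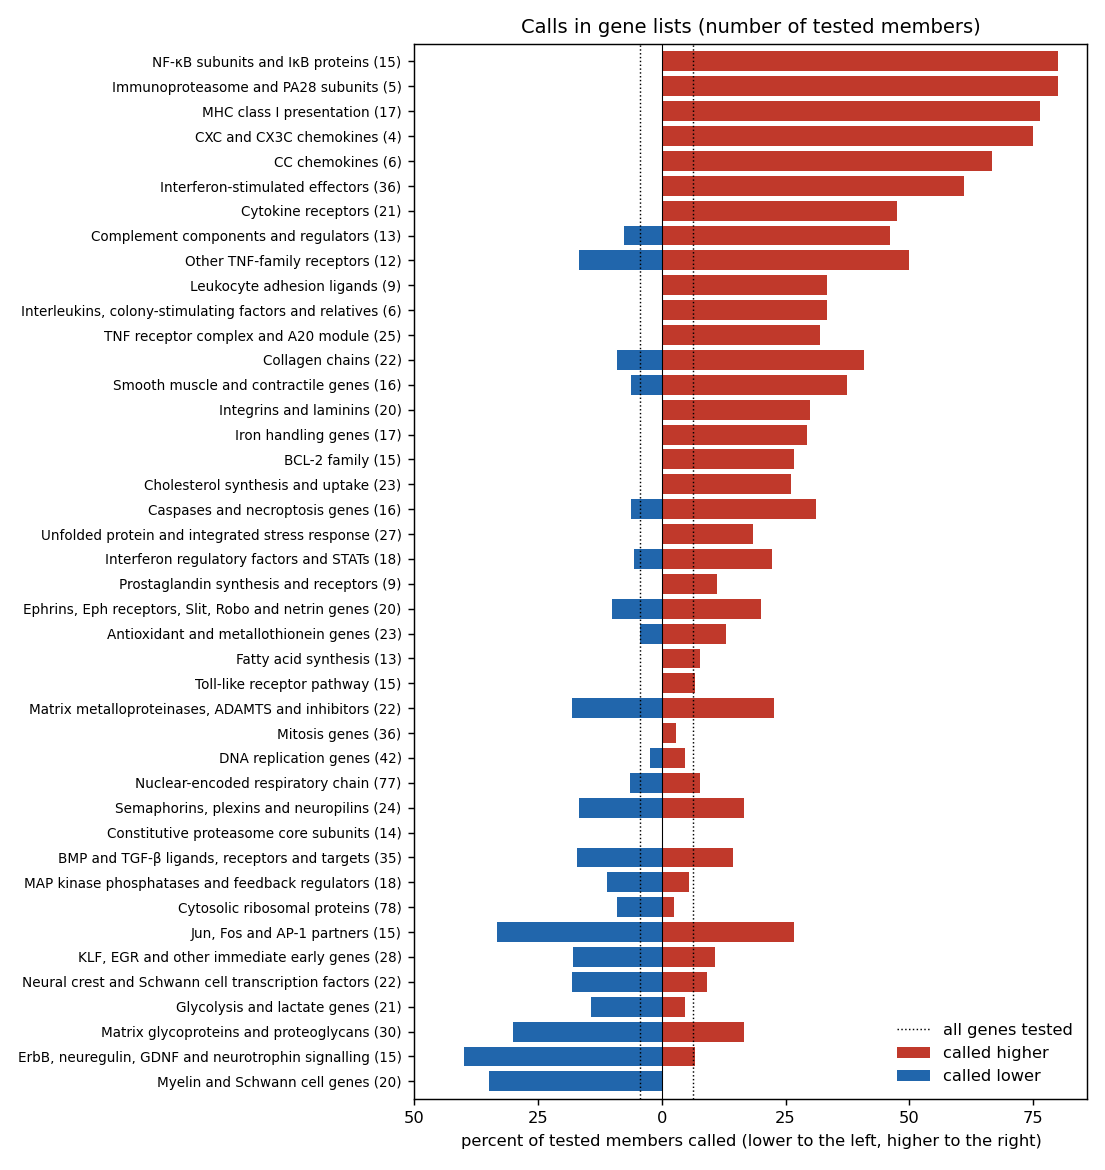
For the 42 gene lists with at least 4 tested members, horizontal bars give the percent of tested members that rose (red, to the right) and fell (blue, to the left), with the number of tested members in brackets and dotted lines at the shares of all genes tested, 6.37% and 4.37%. Lists are ordered by the share higher minus the share lower, so that NF-κB and immunoproteasome stand at the top with equal shares, the constitutive proteasome has no bar, and glial and neurotrophic lists stand at the bottom.

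Changes of isoform were tested on another measure than changes of level, so the numbers of calls were not compared. A transcript's share of the summed FPKM of its gene was compared for 20357 transcripts of 8564 genes, with limma on the log2 ratio of the transcript to the other transcripts of the gene. At an adjusted p under 0.05, 18 transcripts (0.0884%) of 14 genes were called, 9 with a higher and 9 with a lower share. An unadjusted p under 0.05 was found for 1113. Among the 14 genes, 3 were also called at the level of the gene. The share called at that level was 10.7% over all genes tested, and 14 genes are too few for a comparison. The FPKM of isoforms is an estimate that divides shared fragments, and the shares of a transcript had a median SD of 4.02 percentage points among the Con libraries. The 10 transcripts below have the largest differences in share, 1 per gene, and all have groups that do not overlap, as do 11.8% of all transcripts tested.

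Rtn4-202 had the largest change in FPKM among the 10 named transcripts. Rtn4 encodes reticulon 4, whose long form Nogo-A restrains the growth of axons and whose shorter forms shape the endoplasmic reticulum. The transcript Rtn4-202, of 7 exons with a coding sequence of 1068 bases, was at 2.45, 2.52 and 2.53 FPKM in Con and at 64.0, 64.8 and 70.3 FPKM with TNF-α. Its share rose from 6.53% ± 0.19 to 67.8% ± 1.44 (SD, n = 3 each, adjusted p = 0.000141). Rtn4-205, with a coding sequence of 3486 bases, was at 20.8 to 22.4 FPKM in Con and at 23.6 to 26.5 FPKM with TNF-α, and Rtn4-210, whose coding sequence has the same length as that of Rtn4-202, was at 6.38 to 9.24 FPKM in Con and listed at 0 with TNF-α. The gene as a whole was at 37.6, 39.7 and 37.6 FPKM in Con and at 93.3, 98.0 and 102 FPKM with TNF-α. This difference was not called when the spread was taken over all 9 libraries (adjusted p = 0.0569) and was called with the 6 libraries alone (adjusted p = 2.16e-05). The 3 libraries with WBT held 38.5, 42.8 and 128 FPKM.

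Some switches involved a transcript without a coding sequence or one annotated for nonsense-mediated decay. Utp18, a gene of ribosome assembly, moved from Utp18-202, a processed transcript without a coding sequence, to the coding Utp18-201. The share of Utp18-201 was 36.7%, 31.2% and 31.4% in Con and reached 97.1% ± 2.00 (SD, n = 3) with TNF-α (adjusted p = 0.00186), while that of Utp18-202 went from 61.5% to 0.514% and the gene as a whole had a log2 fold change of 0.03. Pon3, the gene of a lactonase, moved from Pon3-203, annotated for nonsense-mediated decay, to the coding Pon3-201, whose share rose from 21.1% ± 2.36 to 77.1% ± 6.19. Plk4, a kinase that controls centriole number, moved the other way. Plk4-205, annotated for nonsense-mediated decay, was listed at 0 in all Con libraries and held 30.3% to 62.3% of the gene with TNF-α (adjusted p = 0.00975). Its adjusted p was 0.156 with a pseudocount of 1 FPKM and 0.0672 with the 6 libraries alone. Mad1l1-206, a transcript without a coding sequence from a gene of the spindle checkpoint, went from 1.16% ± 1.03 to 34.8% ± 3.59. With the 6 libraries alone its adjusted p was 0.0514, and that of Atp5c1-203 and Vwa5a-202 was 0.0664. Without TNF-α replicate 2 the adjusted p-values were 0.0555 for Mad1l1-206, 0.0622 for Atp5c1-203 and 0.0711 for Vwa5a-202.

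Others were between coding transcripts. Gmeb1, a gene of a DNA-binding protein, moved from Gmeb1-203 to Gmeb1-207, which have coding sequences of equal length, 1686 bases, and differ in start by 9027 bases. Gmeb1-203 held 59.5% ± 7.56 in Con and 0.0163% with TNF-α. Atp5c1, the γ subunit of ATP synthase, moved in part from Atp5c1-203, with a coding sequence of 894 bases, to Atp5c1-201, with 891 bases, and the share of Atp5c1-203 went from 91.1% ± 2.18 to 50.1% ± 7.35 (adjusted p = 0.0142). Vwa5a-202 rose from 39.3% ± 4.47 to 76.1% ± 1.13 of Vwa5a, at the cost of Vwa5a-201. Without TNF-α replicate 2, the adjusted p-values of Atp5c1-203, Vwa5a-202 and Mad1l1-206 became 0.0622, 0.0711 and 0.0555. The least certain of the 10 were Eif2b4-204, at 17.3% to 42.5% with TNF-α and under 1.5% in Con, and Zmynd8-205, at 29.1%, 30.1% and 6.4% in Con. Leaving out single libraries of either group ended both calls in 5 of 6 fits, with adjusted p-values up to 0.137 and 0.0957. Of the 10 transcripts, Utp18-201, Rtn4-202 and Gmeb1-203 passed the threshold under every alternative that tested them.

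**Figure D5:**
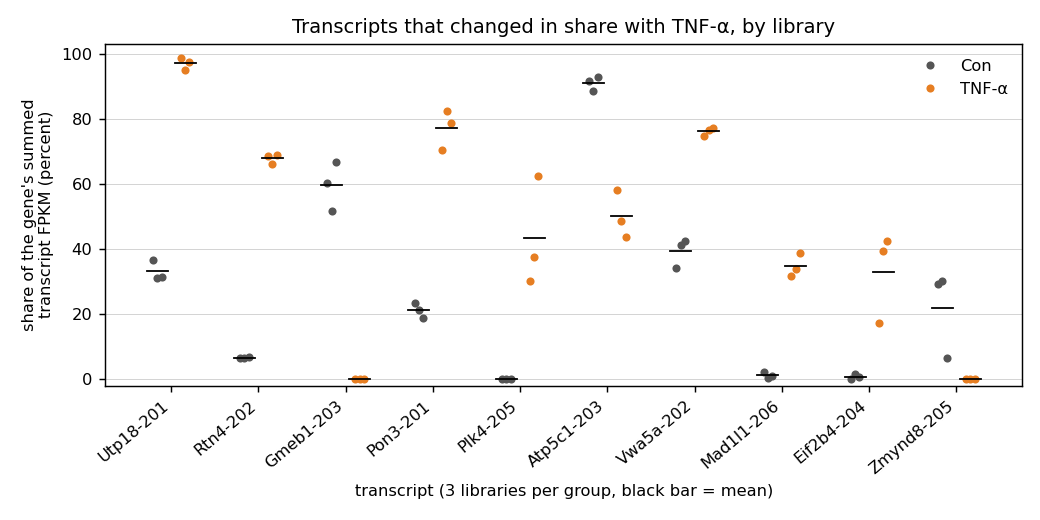
The share of each transcript in the summed FPKM of its gene (percent) is shown for the 3 Con libraries (grey) and the 3 TNF-α libraries (orange) for the 10 named transcripts, with a black bar at the group mean. Rtn4-202 goes from 6.53% to 67.8% with little spread, whereas Plk4-205 and Eif2b4-204 vary widely among the TNF-α libraries.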

How the data were processed

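Poly(A) RNA of 9 cultures was sequenced as paired-end libraries with a kit that is not stated to keep the strand. The authors deposited FPKM values per gene and per transcript, made with HISAT2, StringTie and Ballgown (versions and genome build are not given in the sources used here). Symbols and positions came from GENCODE M21 (GRCm38), which held 98.1% of the gene identifiers. Values were analysed as log2(FPKM + 0.1) with limma 3.58.1 in R 4.3.3 (lmFit, eBayes with an intensity trend, no trend for isoforms), with 1 coefficient for each of the 3 groups, fitted to all 9 libraries, and Benjamini-Hochberg adjustment over all genes or transcripts tested. Transcripts needed a mean of at least 1 FPKM and a mean share of 5% to 95%. Tables and figures were made with Python 3.11.15, pandas 2.3.3 and matplotlib 3.10.9. The fits were run on simulated data with independent normal noise and planted changes of a fixed size. That run cannot show how the fits treat smaller changes or libraries that differ strongly within a group. Depth is approximate, since only 49.9% to 53.7% of low values per library compared lay within 0.1 of a whole fragment, and the precision of low genes is limited by counting, with about 37.9 fragments at 1 FPKM for 2000 bases in the shallowest of these libraries.

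The members and gene lists were chosen with earlier results of these data known. Named were the 20 called genes with the largest change in each direction whose groups do not overlap, leaving out predicted genes, in each list the 4 called members of largest change and the 2 of highest mean, TNF-α pathway genes whatever their change, the 10 transcripts of largest share difference, 1 per gene, and the top marker of each cell type. Lists had no test of their own. Alternatives covered the pseudocount, the filter, the trend, the libraries in the fit, scaling, the gene value, the replicate block, left-out libraries and the promoter window. Some members of the lists are not reported here by name.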

Additional observations from a re-analysis of the deposited data

How the results depend on the processing

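Over the alternative settings, 105 of the 106 named genes called kept their call, the exception being Bak1, and no named gene changed sign. Of all 1364 genes called, 747 were called under every alternative that tested them, and of the 184 changed more than 2-fold, 168. The genes that rose numbered 544 to 670 without single libraries, and those that fell 358 to 423, with 358 without Con replicate 3 and 361 without TNF-α replicate 3. When the fit used the 6 compared libraries alone, 650 genes rose and 434 fell, and 1019 of the 1364 genes kept their call. With genes above 0 in 3 of 9 libraries, 198 genes were more than 2-fold higher and 123 more than 2-fold lower, with a mean of at least 5 FPKM 59 and 33, and with a pseudocount of 1 FPKM 39 were more than 2-fold lower. The calls were 59.3% higher in the fit reported and 51.8% after quantile normalization.

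The transcripts changed in share numbered 9 with a mean of at least 5 FPKM and 21 to 48 without single libraries, the highest count being without TNF-α replicate 3. The cause was not tested. Libraries of equal number in Con and TNF-α share only the number, with correlations of their deviations of 0.036, -0.009 and 0.038. With the replicate number as a block, 663 genes rose and 422 fell, and 8 transcripts changed in share. Not every library correlated best with the one of its own number. Depth limits genes near 1 FPKM, and the depth itself is an estimate, so no interval on counts is given.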

Other observations

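Among the genes tested, 66 differed by more than 2-fold between the fitted group means without being called, 38 of them in the positive direction. In 35 of the 66, the libraries of 1 group ranged over more than 10-fold. Pcdhgb4, a clustered protocadherin whose gene shares exons with its neighbours, was at 48.6 FPKM in 1 Con library and below 0.01 FPKM in the other two, and at 45.7, 37.0 and 46.2 FPKM with TNF-α. Kctd12, an auxiliary subunit of GABA-B receptors, was at 8.16, 11.4 and 13.3 FPKM in Con and at 5.54, 0 and 5.67 FPKM with TNF-α. Both genes were chosen after their values were seen, and the cause of these differences within a group was not tested.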
